A study of Rattus norvegicus with 18 samples.

Results

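The 9 genes described here encode transcription factors that separate naive and memory T cells from effector T cells: *Tcf7*, *Lef1*, *Bach2*, *Foxo1*, *Satb1*, *Id2*, *Id3*, *Foxp1* and *Ikzf1*. They were taken by gene name, 9 of the 32882 genes of each rat table. All 18 libraries held T-MBP cells, that is CD4+ T cells of Lewis rats directed against myelin basic protein (MBP), which were restimulated with MBP in culture, transferred intravenously into Lewis rats and sorted 3 days later. Before transfer, cells that expressed a green fluorescent protein were electroporated with Cas9 and a guide against *Ets1* or *Grk2* (KO), and cells that expressed BFP with Cas9 and a non-targeting (NT) guide (control). With 3 libraries per group, *Ets1*-KO cells were set against their controls in spinal cord parenchyma and again in spleen, and *Grk2*-KO cells against theirs in spleen alone. For the parenchyma, the study describes *Ets1*-KO and control cells as co-transferred, that is taken from rats that had received both. The methods give both sexes and an age between 5 and 20 weeks for the rats, and the labels do not give them per library. Cells of all groups went through culture, restimulation, viral transduction with a marker and transfer, and the KO cells were edited populations and not clones. The marker protein differed between KO and control, so that marker and genotype cannot be told apart.

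These factors act in opposed groups. TCF-1, encoded by *Tcf7*, and LEF1 bind DNA through an HMG box and keep T cells in naive, memory and stem-like states, and their mRNA falls when T cells become effectors. BACH2 represses effector genes, FOXO1 drives genes of quiescence and of lymph node homing, FOXP1 holds naive T cells in quiescence, SATB1 organizes chromatin in thymocytes and naive T cells, and Ikaros, encoded by *Ikzf1*, is a zinc finger factor of all lymphocytes. ID2 and ID3 bind E proteins and keep them from DNA, with ID2 prominent in effector cells and ID3 in naive and long-lived memory cells. ETS1, the factor edited in 2 of the experiments, is itself a DNA-binding protein of T cells, and GRK2 is a kinase that desensitizes receptors such as S1PR1.

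Reads per library on genes ranged from 898092 to 2248258, and mitochondrially encoded genes took between 14.1% and 27.4% of them. Each read was taken near the 3′ end of its transcript, and the number of reads in a library measures the level of a gene in the sorted pool, in which fewer cells that express it and less RNA per cell cannot be told apart. All 8 T cell marker genes were detected in every library, with a summed level between 2597 and 3378 CPM, that is reads scaled to 1000000 per library. B cell markers, which matter here because B cells also express *Bach2*, *Foxp1* and *Ikzf1*, summed to between 2.04 and 9.89 CPM, with 1 to 3 of 10 genes detected per library and *Pax5*, *Cd22*, *Blk* and *Fcer2* at 0 in all 18. *Grk2* itself fell in the *Grk2*-KO cells, by 1.22 on the log2 scale (SE 0.13, adjusted p = 1.76e-12). *Ets1* mRNA differed by 0.09 (SE 0.07, adjusted p = 0.56) in the parenchyma and by -0.06 (SE 0.11, adjusted p = 0.854) in the spleen. Reads at the 3′ end do not show an edit elsewhere in the transcript, so they do not check the *Ets1* labels.

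In the parenchyma, *Ets1*-KO cells had less mRNA of *Tcf7*, *Lef1* and *Satb1* than the control cells. *Tcf7* reached 0.553 times, *Lef1* 0.439 times and *Satb1* 0.779 times the control level, as the fold of log2(normalized count + 1). Normalized counts are reads divided by a size factor per library, and a gene was called with a Benjamini-Hochberg adjusted p under 0.05 in limma. Of the 9 genes, 7 reached the minimum mean of 10 normalized counts over the 6 libraries, *Bach2* and *Id3* did not, and 3 of the 7 were called, all lower. Over all 7002 genes tested, 5.23% were called, 2.27% higher and 2.96% lower. The median log2 difference of the 7 genes was -0.30, and that of all genes tested was -0.03.

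**Figure D1:**
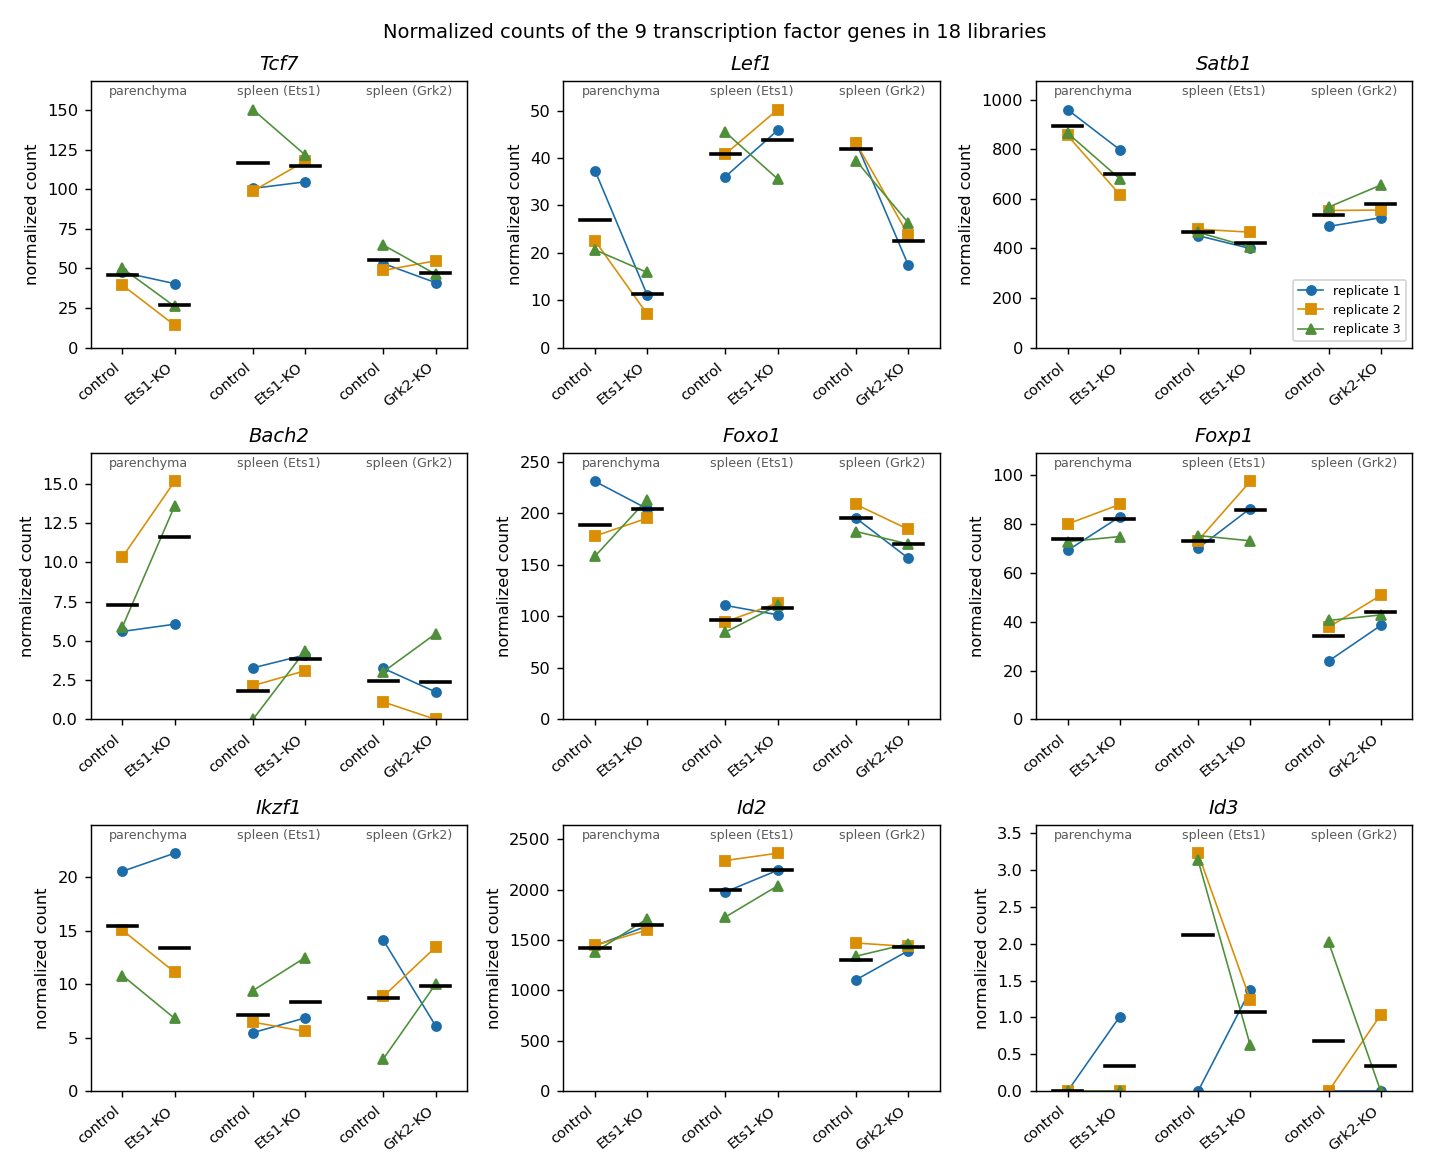
Normalized count (linear axis from 0) of each of the 9 genes in the 18 libraries, with KO and control libraries of the same replicate number joined by a line and the group mean as a black bar. In the parenchyma the 3 lines of *Tcf7*, *Lef1* and *Satb1* each go down, while *Lef1* also goes down in all 3 pairs of the *Grk2* experiment.

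The sequences just before the starts of these 3 genes are shown because the genes fell together, as the 250 bases upstream of the RefSeq start in the build GRCr8, 5′ to 3′ on the strand of the gene. Capitals mark AGGAAG or its complement, which hold the GGAA core that ETS proteins bind, and CANNTG, the E-box on which the E proteins held by ID2 and ID3 act. The GGAA core in other surroundings is not marked, and it occurs on 1 strand or the other in all 3 windows.
Tcf7 (chr10:36954280-36954529, minus strand): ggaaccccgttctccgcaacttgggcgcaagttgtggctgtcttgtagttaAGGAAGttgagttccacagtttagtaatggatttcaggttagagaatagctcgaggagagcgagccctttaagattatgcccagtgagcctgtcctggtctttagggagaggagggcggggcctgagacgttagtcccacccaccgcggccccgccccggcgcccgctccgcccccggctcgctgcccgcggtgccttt
Lef1 (chr2:222340463-222340712, plus strand): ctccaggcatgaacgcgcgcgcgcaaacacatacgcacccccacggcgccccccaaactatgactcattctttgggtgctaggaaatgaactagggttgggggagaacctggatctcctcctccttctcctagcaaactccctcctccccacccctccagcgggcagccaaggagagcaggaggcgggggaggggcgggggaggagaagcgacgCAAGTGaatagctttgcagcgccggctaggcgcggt
Satb1 (chr9:4989926-4990175, minus strand): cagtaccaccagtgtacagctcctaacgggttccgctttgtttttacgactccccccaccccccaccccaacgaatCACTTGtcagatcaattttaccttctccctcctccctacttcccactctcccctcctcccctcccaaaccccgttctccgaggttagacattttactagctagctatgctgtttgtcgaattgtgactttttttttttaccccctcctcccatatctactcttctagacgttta
Promoters of all 9 genes were matched by symbol and searched on both strands. AGGAAG was found in 4 of the 9 (*Tcf7*, *Bach2*, *Id3* and *Ikzf1*) and in 29.5% of 33469 rat promoters of this length. The stricter ETS letters CCGGAA were in 0 of the 9 and in 12.6% of all promoters, and the TCF/LEF letters CTTTGA were in 0 of the 9 and in 13.9%. CANNTG, whose matches can share end bases with those of the others, was in 5 of the 9 (*Lef1*, *Bach2*, *Satb1*, *Id2* and *Foxp1*) and in 65.5% of all promoters. The FOXO letters GTAAACA were in 1 of the 9, *Foxp1*, and in 3.2%. These matches describe the letters of the window and show no binding.

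*Tcf7* (ENSRNOG00000005872) spans chr10:37617278-37645802 on the minus strand of Rnor_6.0, the build of the counts. Its normalized counts were 47.6, 39.5 and 50.1 in the control libraries of replicates 1, 2 and 3 from the parenchyma, and 40.4, 14.2 and 26.1 in the *Ets1*-KO libraries. The groups overlapped, since the first *Ets1*-KO library lay above the second control library. *Tcf7* fell by 0.86 on the log2 scale (SE 0.24, adjusted p = 0.00937, 95% interval from -1.32 to -0.39), and the KO library was lower in 3 of 3 pairs, with log2 differences of -0.23, -1.42 and -0.92. The exact permutation test gave p = 0.2, where 3 against 3 libraries allow no p under 0.1. The values rest on few reads, between 14 and 51 per library.

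*Lef1* (ENSRNOG00000010121, chr2:236233238-236345056, plus strand) fell by 1.19 (SE 0.32, adjusted p = 0.00844, 95% interval from -1.82 to -0.55). It had normalized counts of 37.4, 22.6 and 20.6 in the control libraries and of 11.1, 7.1 and 15.9 in the *Ets1*-KO libraries. All 3 *Ets1*-KO libraries lay below all 3 control libraries, on between 7 and 40 reads (exact permutation p = 0.1, the smallest possible). *Lef1* thus showed the lowest fold of the 7 genes tested here and also the fewest reads of the 3 that were called.

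*Satb1* (ENSRNOG00000012942) spans chr9:2190914-2274629, on the plus strand in Rnor_6.0 and on the minus strand in GRCr8. It was measured with between 601 and 1028 reads per library. Its normalized counts were 960.3, 856 and 866 in the control libraries and 799, 618 and 681 in the *Ets1*-KO libraries, again with no overlap. The decrease was small and even, with log2 differences of -0.27, -0.47 and -0.35 in the 3 pairs, and *Satb1* fell by 0.36 (SE 0.08, adjusted p = 0.000398, 95% interval from -0.52 to -0.20; exact permutation p = 0.1).

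*Id2* (ENSRNOG00000007237, chr6:44348500-44363915, minus strand), the E protein inhibitor of effector cells, stood on the other side. Control libraries had 1442, 1447 and 1380 normalized counts and *Ets1*-KO libraries 1639, 1598 and 1711. Every *Ets1*-KO library was above every control library, but the difference of 0.21 (SE 0.07, adjusted p = 0.0544, 95% interval from 0.07 to 0.35) did not pass the threshold. Of the 7 genes tested, 3 had KO and control libraries that did not overlap (*Lef1* and *Satb1* lower, *Id2* higher), against 18.4% of all genes tested.

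The forkhead factors and Ikaros did not pass the test in the parenchyma. *Foxo1* differed by 0.13 (SE 0.11, adjusted p = 0.621, interval from -0.09 to 0.35), with control libraries between 158 and 231 and *Ets1*-KO libraries between 195 and 213 normalized counts. *Foxp1* differed by 0.14 (SE 0.16, adjusted p = 0.719, interval from -0.17 to 0.46), with overlapping groups. *Ikzf1* differed by -0.30 (SE 0.36, adjusted p = 0.742) on between 6 and 22 reads per library, and its interval from -1.001 to 0.40 would hold a change of the size seen for *Tcf7*.

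*Bach2* and *Id3* were too low for the test. *Bach2* had 6, 11 and 6 reads in the control libraries of the parenchyma and 6, 15 and 12 in the *Ets1*-KO libraries, with normalized counts of 5.6, 10.3 and 5.9 against 6.1, 15.2 and 13.6. The KO library was higher in 3 of 3 pairs, and the groups overlapped (exact permutation p = 0.2). *Id3* had 0 reads in 5 of the 6 parenchyma libraries and 1 read in the other, so that no difference was detectable at this depth.

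**Figure D2:**
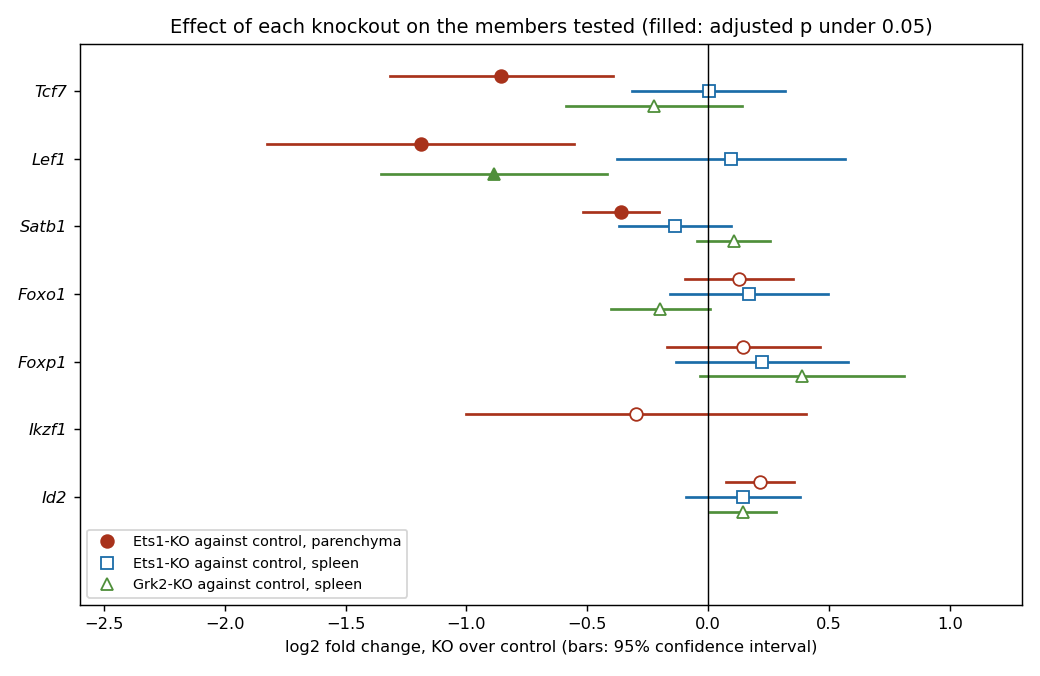
Log2 fold change of KO over control (horizontal axis) with its 95% confidence interval for each gene tested, in the 3 comparisons; filled symbols passed the adjusted p of 0.05. The filled symbols are *Tcf7*, *Lef1* and *Satb1* in the parenchyma and *Lef1* in the *Grk2* experiment, all to the left of 0.

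The calls in the parenchyma depended on how the spread was estimated. limma set the prior degrees of freedom of this table to infinity, so that a gene's own spread between pairs did not enter its SE, and without the variance trend none of the 3 genes was called (adjusted p = 0.314 for *Tcf7*, 0.282 for *Lef1* and 0.371 for *Satb1*), with 3 calls left among all genes, down from 366. Without replicate 2, whose *Ets1*-KO library was lowest for *Tcf7*, *Lef1* and *Satb1*, the differences were -0.57, -1.01 and -0.31 and none was called either. *Tcf7* also lost its call without replicate 3 (adjusted p = 0.0917), without the replicate block (adjusted p = 0.0765), without the filter on low counts (adjusted p = 0.0637) and with DESeq2 (adjusted p = 0.666). *Lef1* lost it without replicate 1 (adjusted p = 0.242) and without the filter (adjusted p = 0.0697). The summed level of myeloid markers was higher in the *Ets1*-KO library of each pair, but the groups overlapped. It lay between 21.99 and 41.7 CPM in the control libraries (6 to 10 of 12 genes detected) and between 35.4 and 55.5 in the *Ets1*-KO libraries (9 to 11 of 12). *P2ry12* was at 0 in all 6. Their part in the differences was not tested.

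Other genes of the same programme were described from lists of gene names, which were chosen with earlier results of these data known. Their counts beside the share over all genes are therefore a description. Among 5 tested of 10 genes of naive homing and FOXO targets, 2 fell in the parenchyma and none rose, where 2.96% of all genes fell. *Btg1*, an antiproliferative gene of quiescent lymphocytes, fell by 0.55 (SE 0.12, adjusted p = 0.000212) and *Sesn3*, a stress-response gene that FOXO factors induce, by 0.42 (SE 0.11, adjusted p = 0.0087). *S1pr1*, the receptor for exit from lymphoid organs, differed by 0.04 (SE 0.16). Of 12 effector transcription factors, 11 were tested, 3 rose and none fell, where 2.27% of all genes rose. These were *Nfil3* (0.60, SE 0.12), *Batf* (0.46, SE 0.11) and *Tbx21*, encoding the Th1 factor T-bet (0.35, SE 0.08). The median log2 difference was -0.18 for the first list and 0.28 for the effector factors, beside -0.03 over all genes. None of these 5 calls held without the variance trend (adjusted p between 0.275 and 0.414), *Batf* and *Tbx21* were not called without replicate 2, and *Sesn3* was not called without replicate 1, without replicate 3 or without the replicate block, in refits of the listed genes added after the data were seen. Of 25 relatives and partners of the 9 factors (other TCF, FOX, ID, BACH, SATB and Ikaros proteins and their cofactors), 13 were tested and none was called. None of 4 tested of 10 memory and stem-like genes was called either, and 3 of them were higher and 1 was lower. The median log2 difference was -0.001 for the relatives and 0.33 for the memory and stem-like genes, the latter above that of the effector factors.

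In the spleen, none of these factors was called in *Ets1*-KO cells. The minimum was reached by 6 of the 9 genes (not by *Bach2*, *Id3* and *Ikzf1*), 0 of the 6 passed the limma test, 0 had an unadjusted p under 0.05, and edgeR also called 0, where 2.22% of all 6979 genes tested were called by limma. DESeq2 gave an adjusted p to *Id2* (0.731) and *Satb1* (0.857) and to none of the other 4. *Tcf7* counts were 100.6, 99.0 and 150.4 in the control libraries and 105, 118 and 122 in the *Ets1*-KO libraries. The difference was 0.00 (SE 0.15, adjusted p = 0.999, interval from -0.32 to 0.32). *Lef1* counts were 36.1, 40.9 and 45.4 against 45.9, 50.2 and 35.6, a difference of 0.09 (SE 0.23, adjusted p = 0.899, interval from -0.38 to 0.57).

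*Satb1* was lower in 3 of 3 pairs in the spleen as well, with log2 differences between -0.20 and -0.04, but the groups overlapped and the difference of -0.14 (SE 0.11, adjusted p = 0.635) did not pass. *Id2* was higher in 3 of 3 pairs, by 0.14 on average (SE 0.11, adjusted p = 0.622). *Foxo1* differed by 0.17 (SE 0.16) and *Foxp1* by 0.22 (SE 0.17). None of the 6 genes had libraries that did not overlap between KO and control, against 16.9% of all genes. *Bach2* had between 0 and 3 reads in the control libraries and between 5 and 7 in the *Ets1*-KO libraries, but these KO libraries held more reads in all. From the lists, 1 of 7 genes of naive homing and FOXO targets rose, *Pik3ip1* (1.36, SE 0.30), and 1 of 11 effector factors rose, *Maf* (0.57, SE 0.15), and none fell. Neither was called without the trend (adjusted p = 0.236 and 0.359) or without replicate 1 (adjusted p = 0.391 and 0.588), where calls over all genes went from 155 to 0 and to 3. *Maf* was also not called without replicate 3 (adjusted p = 0.153) or without the replicate block (adjusted p = 0.0962).

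The same editing of *Ets1* was compared between the tissues on the log2 ratios of the 3 pairs each. None of 6 genes was called, where 2.1% of 6520 genes were. The effect on *Lef1* was lower by 1.28 in the parenchyma than in the spleen (SE 0.40, adjusted p = 0.0862, interval from -2.09 to -0.48), that on *Tcf7* by 0.86 (SE 0.28, adjusted p = 0.109, interval from -1.43 to -0.29), and that on *Satb1* by 0.22 (SE 0.13, adjusted p = 0.484). Without replicate 3 the difference of *Lef1* was -1.92 (adjusted p = 0.0128). The calls in the parenchyma and their absence in the spleen are therefore not shown to differ between the tissues.

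In *Grk2*-KO cells of the spleen, *Lef1* was the only gene of this group that was called. Its normalized counts were 43.4, 43.2 and 39.5 in the control libraries and 17.5, 23.8 and 26.4 in the *Grk2*-KO libraries, with no overlap. *Lef1* fell by 0.89 (SE 0.24, adjusted p = 0.0249, interval from -1.36 to -0.42), to 0.541 times the control level, and was lower in 3 of 3 pairs (exact permutation p = 0.1). It was 1 of 6 genes tested, where 1.56% of all 6985 genes were called, 0.63% lower, and also the only 1 of the 6 whose libraries did not overlap, against 12.2% of all genes. The call was lost without the replicate block (adjusted p = 0.134), without the variance trend (adjusted p = 0.496, with 0 calls among all genes) and without any one of the replicates (adjusted p between 0.0636 and 0.451). DESeq2 gave *Lef1* no adjusted p.

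*Tcf7*, which shares targets with *Lef1*, had 53.1, 48.8 and 64.8 against 41.0, 54.9 and 46.4 normalized counts, a difference of -0.22 (SE 0.18, adjusted p = 0.734, interval from -0.59 to 0.14). *Foxo1* was lower in 3 of 3 pairs (-0.20, SE 0.10, adjusted p = 0.503) and *Foxp1* higher in 3 of 3 (0.39, SE 0.21, adjusted p = 0.523), both with overlapping groups. *Satb1* differed by 0.11 (SE 0.08, adjusted p = 0.686) and *Id2* by 0.14 (SE 0.07, adjusted p = 0.448). None of the other listed genes of homing, memory or effector programmes was called in this comparison. The effects of the 2 edits in the spleen, which have separate control libraries, were also compared, and 0 of 6 genes were called, where 1.94% of 6490 genes were. For *Lef1* the *Ets1* effect exceeded the *Grk2* effect by 0.98 (SE 0.33, adjusted p = 0.133, interval from 0.31 to 1.65).

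The balance of *Tcf7* to *Id2* within a library does not depend on the scaling between libraries. As log2 of the ratio of reads, it was -4.91, -5.18 and -4.77 in the control cells of the parenchyma and -5.32, -6.77 and -6.01 in the *Ets1*-KO cells, so that all 3 *Ets1*-KO libraries lay below all 3 control libraries. The mean fell from -4.95 ± 0.21 (SD, n = 3) to -6.03 ± 0.72. In the spleen with *Ets1* the means were -4.11 ± 0.53 in control and -4.25 ± 0.17 in *Ets1*-KO cells. In the spleen with *Grk2* they were -4.54 ± 0.31 in control and -4.91 ± 0.19 in *Grk2*-KO cells. The libraries overlapped in both. For *Lef1* to *Id2* the means were -5.75 ± 0.43 against -7.19 ± 0.51 in the parenchyma, -5.59 ± 0.32 against -5.65 ± 0.16 in the spleen with *Ets1*, and -4.93 ± 0.24 against -5.98 ± 0.27 in the spleen with *Grk2*. These ratios are given as values, without a test.

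**Figure D3:**
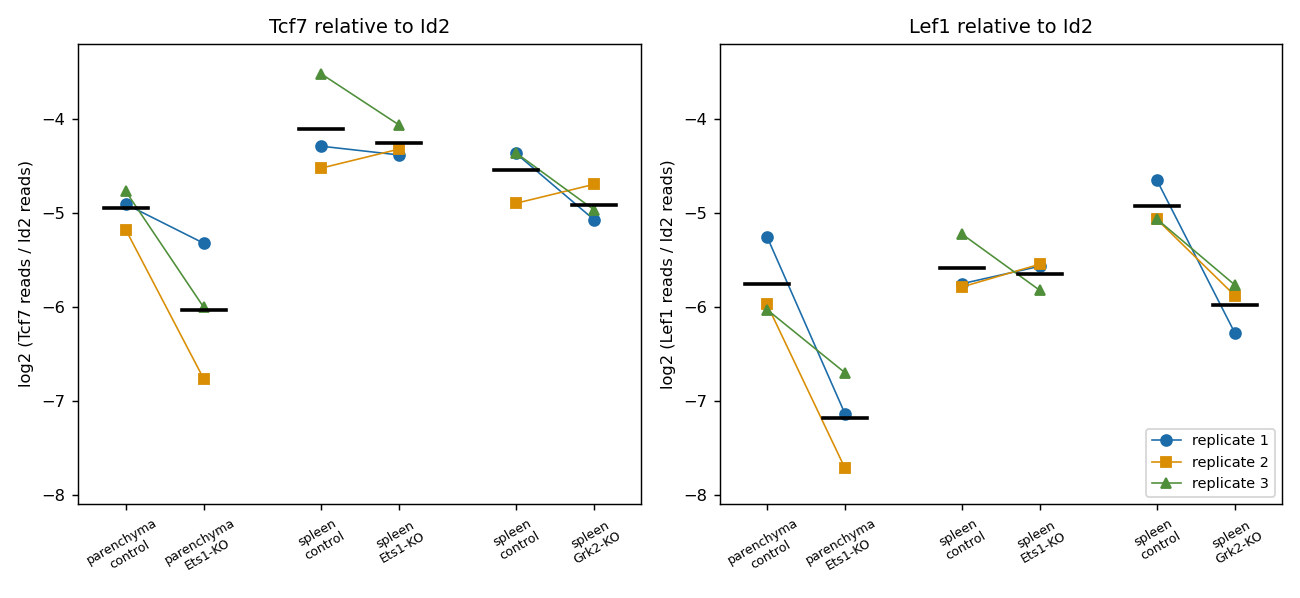
Log2 ratio of *Tcf7* reads (left) and *Lef1* reads (right) to *Id2* reads in each library, KO and control of the same replicate number joined and group means as black bars. In the parenchyma the control means are -4.95 and -5.75 and the *Ets1*-KO means -6.03 and -7.19.

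The level of these genes in control cells was set side by side in CPM, since the tables were normalized separately. Tissue and sequencing experiment cannot be told apart for the parenchyma, and the 2 sets of spleen controls, of the same kind of cell on the same day, differed between themselves. Between these sets 26.9% of 6661 genes with a mean of at least 10 CPM were 2-fold or more apart, and so were 3 of the 6 factors above that level. *Foxo1* had 72.2 ± 11.6 (SD, n = 3) CPM in the spleen controls of the *Ets1* experiment and 150.2 ± 12.2 in those of the *Grk2* experiment, *Tcf7* had 86.4 ± 17.7 and 42.6 ± 5.6, and *Foxp1* had 54.3 ± 2.1 and 26.1 ± 6.4.

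Against this spread, *Tcf7* and *Lef1* were below, and *Satb1* was above, all 6 spleen controls in all 3 parenchyma controls. Over all genes 10.3% lay above and 15.7% below in this way. *Tcf7* had 34.1, 27.2 and 35.5 CPM in the parenchyma, with a mean 2.68-fold and 1.32-fold lower than in the spleen controls of the *Ets1* and the *Grk2* experiments. *Lef1* had 26.7, 15.5 and 14.6, and its mean was 1.60-fold and 1.70-fold lower. *Satb1* had 687, 589 and 613, and its mean was 1.81-fold and 1.53-fold higher. *Lef1* overlapped the spleen controls when mitochondrially encoded genes were left out of the totals or TMM factors were used, and *Tcf7* and *Satb1* did not. With the normalized counts of each table *Tcf7* and *Lef1* both overlapped. The summed myeloid markers also differed between these controls, with 21.99 to 41.7 CPM in the parenchyma, 9.06 to 15.8 in the spleen of the *Ets1* experiment and 1.70 to 2.28 in that of the *Grk2* experiment. Mitochondrially encoded genes took 25.4% to 27.4%, 17.3% to 18.6% and 22.3% to 22.6% of the reads in the same order. The part of either in these levels was not tested.

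*Id2* had 1001.5 ± 28.2 CPM in the parenchyma, 1496 ± 271 in the spleen controls of the *Ets1* experiment and 1002 ± 135 in those of the *Grk2* experiment. It was thus level with the latter and lower than the former. *Foxo1* (133 ± 28.2) and *Foxp1* (52.0 ± 2.8) overlapped the spleen libraries in the parenchyma. *Bach2* had 4.0, 7.1 and 4.2 CPM in the parenchyma and at most 2.5 in any spleen control, on 6 to 11 reads against 0 to 3. *Ikzf1* had 10.9 ± 3.6 in the parenchyma against 5.3 ± 1.3 and 6.7 ± 4.4, and *Id3* was between 0 and 2.5 in all 9 controls.

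**Figure D4:**
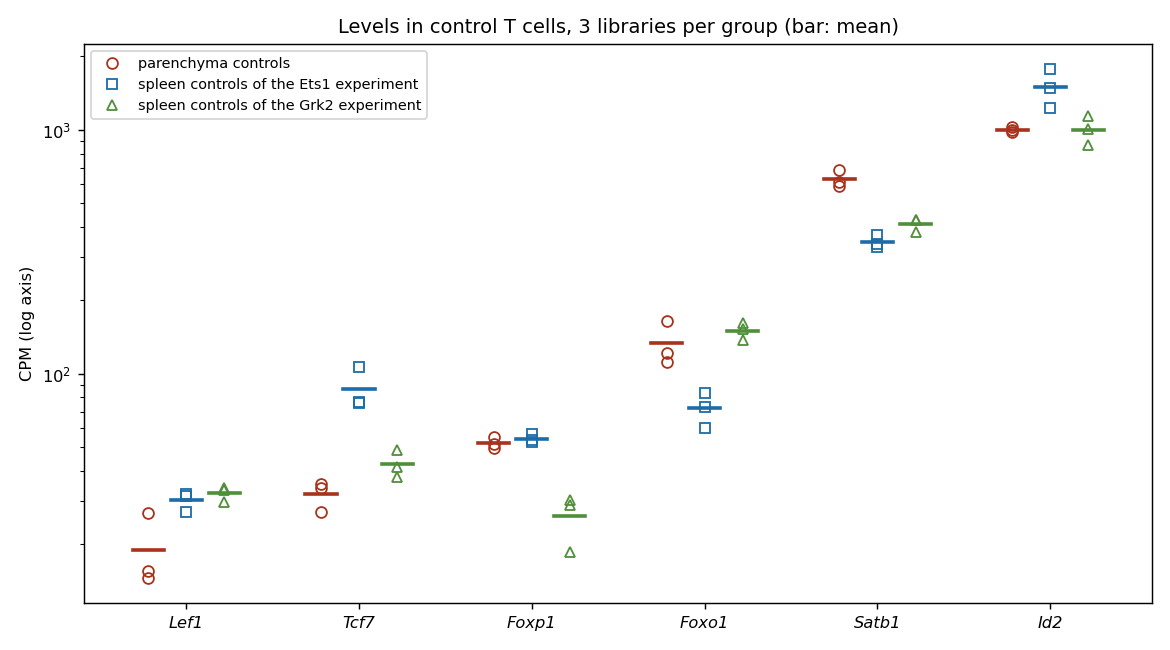
CPM (log axis) of 6 genes in the 3 control libraries of each set, with the mean as a bar. *Tcf7* and *Lef1* are lowest and *Satb1* is highest in the parenchyma, whereas *Foxo1*, *Tcf7* and *Foxp1* differ about as much between the 2 spleen sets.

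The genes whose pattern over the 18 libraries was most like that of each factor were found among 6207 genes, as the highest Pearson correlation of log2(CPM + 1) centred within each table. They were *Kdm1b* for *Tcf7* (r = 0.93), *Tpmt* for *Lef1* (r = 0.88), *Gstm4* for *Id2* (r = 0.88), *Ppp6r1* for *Satb1* (r = 0.87), *Supv3l1* for *Foxo1* (r = 0.82) and *Mapk14* for *Foxp1* (r = 0.80). Each is the highest of 6207 values over libraries that share tables, depth and controls, and is a description. Among the factors themselves, *Tcf7* correlated with *Lef1* at 0.69 and with *Satb1* at 0.65, and *Id2* with *Foxp1* at 0.67. Centring within each table leaves the differences between KO and control in all these values. The correlations are therefore not separate from the KO differences given above.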

How the data were processed

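The rat 3′ mRNA-seq libraries (single-end, 50 bases) were, per the labels and the study's methods, aligned to Rnor_6.0 with STAR 2.7.2b without trimming, counted per gene with HTSeq-count 1.0.0 and divided by DESeq2 size factors (poscounts). These signal values were used as deposited. The deposited comparisons of the authors (log2 fold changes and p-values) and 8 columns of human values were not used. Whole reads were recovered from the steps of each column (tolerance 0.01) for CPM (reads scaled to 1000000 per library) and for edgeR and DESeq2. The *Ets1*-KO columns of replicates 1 and 2 from the parenchyma hold different values but share 1 step of 1.01, so the size factor of either could not be checked on its own. limma 3.58.1 (eBayes with trend; R 4.3.3) was run on log2(normalized count + 1) of genes with a mean of at least 10, replicate number as block, two-sided, Benjamini-Hochberg adjusted over all genes tested. The block follows the correction per animal in the methods; the labels do not say that replicates of 1 number share an animal. Alternatives were no block, other pseudocounts, minimums and scalings, no trend, each replicate left out, edgeR 4.0.16 and DESeq2 1.42.0. The main limma fits, edgeR and DESeq2 were tested on simulated data, and the other alternatives were not. Changes were planted there only in genes with a mean of at least 50 normalized counts. *Tcf7* and *Lef1* in the parenchyma had means of 36.3 and 19.1, below that level. The 9 genes are always named, as are *Ets1*, *Grk2*, up to 4 called genes per list, direction and comparison, and the gene most like each factor; *S1pr1* was named after its values were seen. The members and lists were chosen with earlier results of these data known. Nothing in the labels shows that replicates are separate cultures, so p-values measure the spread between these libraries.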

Additional observations from a re-analysis of the deposited data

Results flagged for a closer look

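For 2 of the listed genes of naive homing and FOXO targets, the effect of *Ets1* editing differed between the tissues by the limma test of the difference. The log2 effect on *Btg1* in the parenchyma minus that in the spleen was -0.83 (SE 0.17, adjusted p = 0.00353). *Btg1* had 197, 221 and 234 normalized counts in control and 152, 149.6 and 143 in *Ets1*-KO cells of the parenchyma, lower in 3 of 3 pairs. In the spleen it had 253, 331 and 210.0 in control and 357, 340 and 262 in *Ets1*-KO cells, higher in 3 of 3 pairs. The spleen groups overlapped, and the spleen difference of 0.28 (SE 0.12, adjusted p = 0.296) was not called. For *Pik3ip1*, an inhibitor of PI3K signalling, the difference was -1.53 (SE 0.34, adjusted p = 0.00788). It rose in the spleen by 1.36 (SE 0.30, adjusted p = 0.0145), from 8.8, 16.1 and 15.7 to 25.3, 34.7 and 49.3 normalized counts, and differed by -0.17 (SE 0.19) in the parenchyma. Of 6520 genes tested, 2.1% were called in this way, 137 in all, 2 without the variance trend and between 28 and 112 with a replicate dropped. In refits added after the data were seen, *Btg1* was not called without the trend (adjusted p = 0.245) or without replicate 1 (adjusted p = 0.0867), and *Pik3ip1* not without the trend (adjusted p = 0.128), without replicate 1 (adjusted p = 0.11), without replicate 3 (adjusted p = 0.0583) or without the replicate block (adjusted p = 0.053). Groups of 3 libraries were too small to look for single libraries far from the others.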

How the results depend on the processing

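In the parenchyma, 3 members were called in *Ets1*-KO cells, 1 without a filter on low counts and 1 with DESeq2, which gave *Lef1* no adjusted p, 0 without the variance trend, and between 0 and 2 when single replicates were dropped. In *Grk2*-KO cells 1 member was called, and 0 without the replicate block, with a minimum of 50 (which leaves *Lef1* out), without the trend, with DESeq2 and when any replicate was dropped. In *Ets1*-KO cells of the spleen 0 members were called under every alternative run, of which DESeq2 gave only *Id2* and *Satb1* an adjusted p. For the difference between tissues the count was 0, and between 0 and 1 when single replicates were dropped. *Id2* in the parenchyma passed with quantile normalization, upper quartile scaling, a minimum of 50 and edgeR (adjusted p between 0.0141 and 0.042). Over its alternatives the adjusted p of *Tcf7* in the parenchyma ranged from 0.00896 to 0.666, of *Lef1* from 0.00482 to 0.282 and of *Satb1* from 0.000396 to 0.371, and of *Lef1* with *Grk2* from 0.0232 to 0.496. Signs turned for 5 of the tested differences, all near 0, when a replicate was dropped, with the lowest and highest values as follows: *Foxo1* in the parenchyma (from -0.021 without replicate 3 to 0.28); in the spleen with *Ets1*, *Tcf7* (from -0.12 without replicate 2, with -0.027 without replicate 1, to 0.15) and *Lef1* (from -0.026 without replicate 1, with -0.0031 without replicate 2, to 0.31); between tissues *Foxp1* (from -0.16 to 0.021 without replicate 2); between edits *Id2* (from -0.053 without replicate 3, with -0.038 without replicate 2, to 0.094). Among values without a test, the KO minus control log2 ratio of *Tcf7* to *Id2* with *Ets1* in the spleen was -0.15, and between -0.32 and 0.055 with a replicate left out, and the log2 level of *Foxp1* in parenchyma over spleen controls was -0.06, and 0.10 without mitochondrially encoded genes, 0.05 with TMM factors and 0.02 with normalized counts of each table. The number of parenchyma controls standing apart was 3 genes, 1 (*Satb1*) with normalized counts of each table, and between 3 and 4 with a replicate left out. The KO minus control log2 ratio of *Tcf7* to *Id2* in the *Grk2* experiment was -0.37, and between -0.66 and -0.20 with a replicate left out. Deviations of same-numbered libraries correlated between -0.003 and 0.18. Libraries of different number were not compared in this way, so these values cannot decide whether same-numbered libraries are pairs. Without the replicate block *Tcf7* in the parenchyma had an adjusted p of 0.0765, and 2 members were called there; without a filter on low counts *Tcf7* and *Lef1* had 0.0637 and 0.0697. Calls over all genes fell from 366, 155 and 109 to 3, 0 and 0 without the trend. Depth limits *Bach2*, *Id3* and *Ikzf1*.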

Other observations

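Of 11 effector transcription factors measured, 8 lay above all 6 spleen controls in all 3 parenchyma controls and none below, where 10.3% of all genes lay above. *Hif1a*, which drives the response to low oxygen, had 1237 ± 162 CPM in the parenchyma against 191 ± 13.2 and 258 ± 18.9 in the spleen controls of the *Ets1* and *Grk2* experiments, *Zeb2* 58.6 ± 3.5 against 7.2 ± 5.4 and 5.1 ± 1.5, and *Maf* 257 ± 15.8 against 81.5 ± 8.9 and 46.9 ± 6.2 (SD, n = 3 each). *Irf4* had 146 ± 27.7 in the parenchyma against 26.8 ± 3.0 and 151 ± 29.5, so that it differed between the spleen sets. Among homing genes, *S1pr1* had 52.1 ± 6.6 against 234 ± 31.7 and 251 ± 9.3. *Ccr7* and *Il7r* had at most 1 read in any control library. *Bcl6*, a factor of follicular helper and memory T cells, had 27.7 ± 3.3 in the parenchyma and 3.4 ± 1.5 and 33.2 ± 6.2 in the spleen sets. Myeloid markers also differed, with *Lyz2* at 33, 18 and 31 reads in the parenchyma controls and between 0 and 2 in the spleen controls, and their part in these levels was not tested. These genes were named after their values were seen, and none of these levels was tested.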
